A study of Mus musculus with 18 samples.

Results

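Accessible chromatin around Sox2 was examined in mouse embryonic stem (ES) cells, over chromosome 3 from 34530000 to 34680000 (genome build mm9). This window of 150 kb holds the Sox2 gene, placed near 34549000 to 34551000, and its distal control region, taken as 100 to 115 kb downstream of the gene start (34649000 to 34664000). Every peak of the 18 deposited ATAC-seq lists that overlapped the window was kept, and peaks that overlapped by 1 bp or more were merged into regions. The window held 336 peaks in 69 regions, of 377189 regions in the whole series. Membership was decided by position and used no measured value. All libraries came from ES cells grown in serum and LIF. Wild-type cells received 1 µM ICRF-193 or DMSO for 24 h (2 libraries per group) or for 1 h (3 libraries per group). Cells with the genotype Brg1 fl/fl and cells with the genotype Baf53a fl/-, each with Actin-CreER, were given 0.8 µM tamoxifen or its solvent ethanol for 24 h, which was washed out 48 h before harvest (2 libraries per group and line). By the labelled genotype the Baf53a ethanol controls carry 1 intact allele only, although the names of the deposited lists give this line as flfl, and every tamoxifen library also received tamoxifen itself, which the ethanol controls did not. The 1 h groups rest on the sample titles and the design text, because the protocol field names 24 h only. Replicates are passages of the same line, and every p-value here reflects the scatter among them.

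Sox2 encodes an HMG-box transcription factor that binds DNA together with Oct4 and is required to keep ES cells pluripotent. In mouse ES cells its transcription depends mainly on the distal control region, a cluster of enhancers that contacts the promoter over a long distance. ICRF-193 inhibits topoisomerase II (TOP2), the enzyme that passes a DNA duplex through another. The BAF complex moves nucleosomes with the ATPase Brg1, and Baf53a is its actin-like subunit; in the knockout lines tamoxifen switches on Cre, which removes the gene in question. In ATAC-seq a transposase inserts adapters into open DNA, and a peak marks a site where insertions pile up. In the RefSeq gene table (GRCm38.p6) the Sox2 gene lies inside the span of the long noncoding RNA gene Sox2ot.

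The promoter sequence is shown because the gene start held a peak in all 18 libraries. It is the RefSeq sequence of the 250 bases before the Sox2 start (GRCm38.p6, chr3:34649745-34649994, plus strand). Those positions belong to another build than the peaks and cannot be set against the mm9 positions given here. Capitals mark GC boxes (GGGCGG or its reverse complement CCGCCC) and a CCAAT box on the opposite strand (ATTGG).

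Sox2 promoter: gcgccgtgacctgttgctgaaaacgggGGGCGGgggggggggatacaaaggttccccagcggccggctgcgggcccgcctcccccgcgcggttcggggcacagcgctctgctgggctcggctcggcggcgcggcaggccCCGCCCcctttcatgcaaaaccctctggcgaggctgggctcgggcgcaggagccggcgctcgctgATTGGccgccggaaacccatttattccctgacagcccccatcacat

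Over both strands the sequence held 2 GC boxes, a motif found in 32.7% of the 32851 promoter sequences of the same length, and 1 CCAAT box, found in 33.8%. The octamer ATGCAAAT (1.60% of promoters), the SOX core CATTGT (10.7%) and the TATA box TATAAA (12.4%) were not among its letters. Only that form of the SOX core was searched, and ACAAAG, the reverse complement of the form CTTTGT, is among the letters of the sequence. Its GC content was 72.0%, higher than in 93.1% of these promoters, and it held 27 CG dinucleotides. These are matches of letters in this stretch only and say nothing of binding.

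The lists held 46431 to 129880 peaks. In each of the 4 contrasts the mean list was shorter in the perturbed group than in its control. Each peak carries a score given by the authors with no stated unit. It was used as a rank in 2 ways. The list percentile is the position of a peak among all peaks of its own list, and it cannot be compared between lists of different lengths. The placement is the percentage of the 18061 regions detected in all 18 lists that scored lower than the peak in the same library, so that every library has the same yardstick. Read depth is unknown, and a missing peak may be a site below the calling threshold. The deletion of Brg1 or Baf53a and the identity of the cells were not checked here, because peak lists hold no expression and no mm9 annotation was used.

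**Figure D1:**
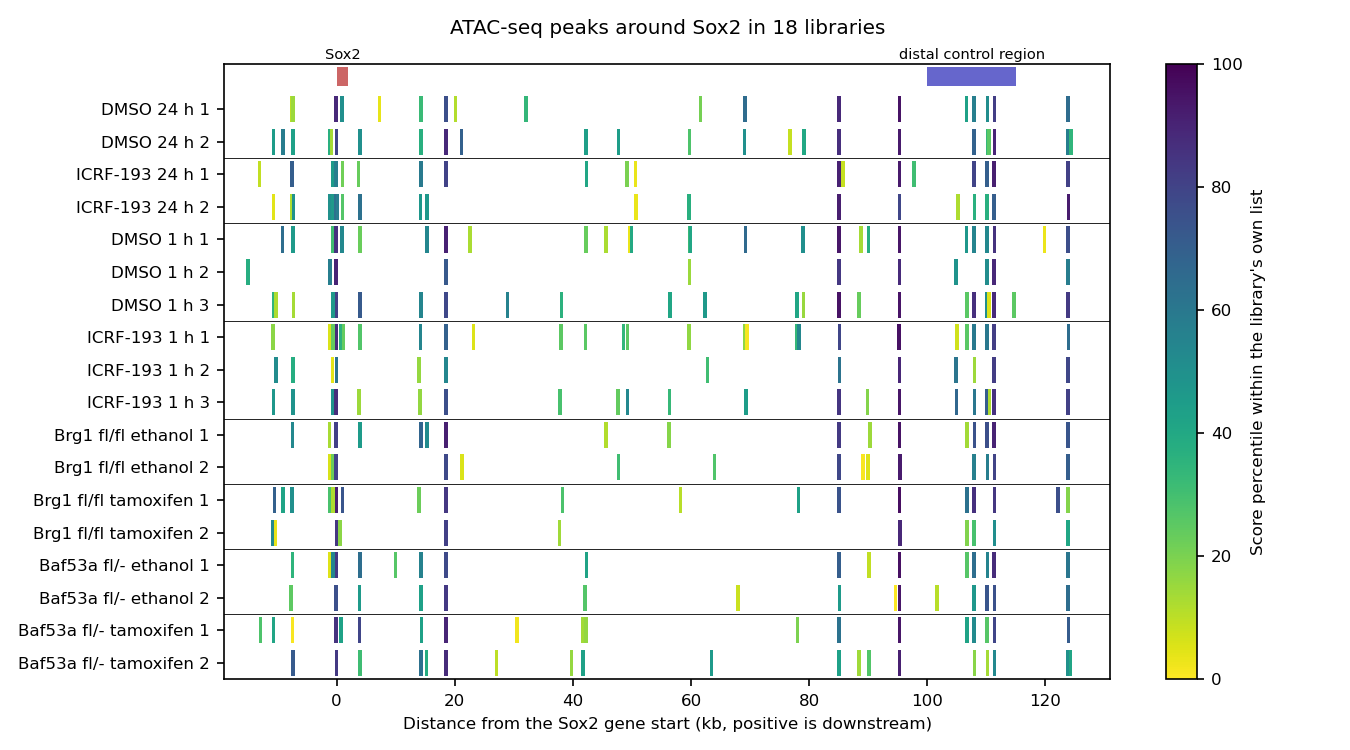
Peaks of the 18 libraries (rows, grouped by treatment) over the Sox2 window, by distance from the gene start in kb; colour gives the score percentile of each peak within its own list, and peaks narrower than 0.6 kb are drawn 0.6 kb wide. The gene start and the sites 95.3, 111 and 124 kb downstream carry a peak in every row, and no site between 20 and 80 kb carries a peak in more than 7 rows.

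Most regions of the window were seen in few libraries, at shares near those of all regions of the series. A peak was present in all 18 libraries in 4 regions (5.80%, against 4.79% of all regions of the series), in 14 to 17 libraries in 6 regions, in 2 to 13 libraries in 26 regions and in 1 library alone in 33 regions (47.8%, against 54.9%). Single-library regions had a median width of 131 bp and a median list percentile of 15.7. In the 10 regions found in 14 or more libraries, the median width of single peaks ran from 211 to 386 bp by region. The window was dense in peaks. It held a mean of 18.7 peaks per library, more than 98.5% of the 16852 stretches of 150 kb with any peak, whose median was 3.83. The map of all peaks shows the 4 sites detected in all libraries as columns that run through every group.

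The Sox2 gene start was open in every library. The region from 34548727 to 34549245 overlapped the gene start, and its list percentile ran from 57.5 to 91.7 with a median of 83.5. Its placement was 50.3 and 20.8 with DMSO for 24 h and 5.62 and 16.2 with ICRF-193 for 24 h. At 1 h it was 32.4, 70.8 and 19.9 with DMSO and 46.3, 25.7 and 47.1 with ICRF-193. The pairs at 24 h did not overlap, while the 3 DMSO libraries at 1 h alone spanned 19.9 to 70.8. In the Brg1 line it was 27.4 and 32.6 with ethanol and 62.7 and 62.1 with tamoxifen, so that the groups did not overlap. In the Baf53a line it was 29.3 and 23.8 with ethanol and 40.8 and 39.3 with tamoxifen, again without overlap.

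A second region within the gene, from 34549511 to 34550215, was weaker and detected in 8 libraries. It held a peak in both Brg1 tamoxifen libraries and neither Brg1 ethanol library, in 1 of 2 Baf53a tamoxifen libraries and neither Baf53a ethanol library, in 2 of 2 libraries with ICRF-193 for 24 h and 1 of 2 with DMSO, and in 1 of 3 at 1 h in each group. Just upstream of the gene, the region centred 0.661 kb before its start was found in 11 libraries and the region 1.16 kb before it in 8, both at median list percentiles under those of the gene start (30.8 and 21).

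Between the gene and the distal control region, 49 regions were found, 28 of them in 1 library alone. The strongest site of the window was here and not at the gene or in the distal control region. The region from 34644067 to 34644597, centred 95.3 kb downstream, was found in all 18 libraries and had the highest score of the window in 15 of them. Its list percentile ran from 79.0 to 96.2 (median 94.3), and its peaks were 260 to 492 bp wide. Its placement was 76.7 and 60.2 with DMSO for 24 h, 67.1 and 36.7 with ICRF-193 for 24 h, 65.9, 65.7 and 66.9 with DMSO for 1 h, and 77, 72.6 and 73.7 with ICRF-193 for 1 h. It was 75.6 and 69.3 with Brg1 ethanol, 82.3 and 72.1 with Brg1 tamoxifen, 78.3 and 75.9 with Baf53a ethanol, and 73.9 and 61.4 with Baf53a tamoxifen. The groups did not overlap at 1 h, where ICRF-193 ranked higher, or in the Baf53a line, where tamoxifen ranked lower. The lowest value belonged to replicate 2 of ICRF-193 for 24 h, where the site 124 kb downstream scored highest.

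The region centred 85.1 kb downstream (34633838 to 34634347) was found in 17 libraries and was missing from Brg1 tamoxifen replicate 2, the shortest list. Its placement differed between the lines. All 4 libraries of the Baf53a line lay between 3.1 and 8.60, ethanol and tamoxifen alike (8.60 and 3.1 against 6.99 and 3.34). The 13 other libraries with a peak lay between 18.7 and 70.5, so that the Baf53a line did not overlap with them. This split was noticed after its values were seen and was not tested, and genotype and line cannot be told apart here. How many other regions split in this way was not counted. In the Brg1 line the ethanol libraries were at 31.4 and 29.5 and tamoxifen replicate 1 at 18.7. At 1 h the DMSO libraries were at 65.3, 54.8 and 70.5 and the ICRF-193 libraries at 24.8, 26.3 and 39.1, without overlap. At 24 h the order was the reverse, with DMSO at 50.2 and 36.5 and ICRF-193 at 57.9 and 68.1, again without overlap. Such separation was common among the 18061 regions of all lists, which leave this site out. With ICRF-193, 4.83% of them ranked lower in every library at 1 h and 21.2% higher in every library at 24 h. How many regions reversed between the times was not counted. Among the 28526 regions shared by the 6 libraries at 1 h, the difference in rank at 85.1 kb was -0.81 (SE 0.34) on the normal score scale explained below, with an unadjusted p of 0.02357 and a limma adjusted p of 0.9994. Among the 40893 regions shared at 24 h it was 0.44 (SE 0.35), with an unadjusted p of 0.2184 and a limma adjusted p of 0.7115. Neither passed.

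Further sites recurred on this stretch. The region 18.5 kb downstream (34567384 to 34567712) was found in 17 libraries, all but replicate 2 of ICRF-193 for 24 h, with placements from 11.9 to 57.7. Its peaks in 7 libraries began at the same base, 34567418, and the others at bases from 34567384 to 34567431. It was the most shared peak edge of the window and was picked for that. Among the 18061 regions of all lists, which leave this site out, the most shared start had a median of 2 libraries. The 95th percentile was 4 and the maximum 18, and the share of regions with 7 or more was not counted. The region 14.2 kb downstream was found in 14 libraries and the region 3.84 kb downstream in 12, with median list percentiles of 45.2 and 45.7.

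**Figure D2:**
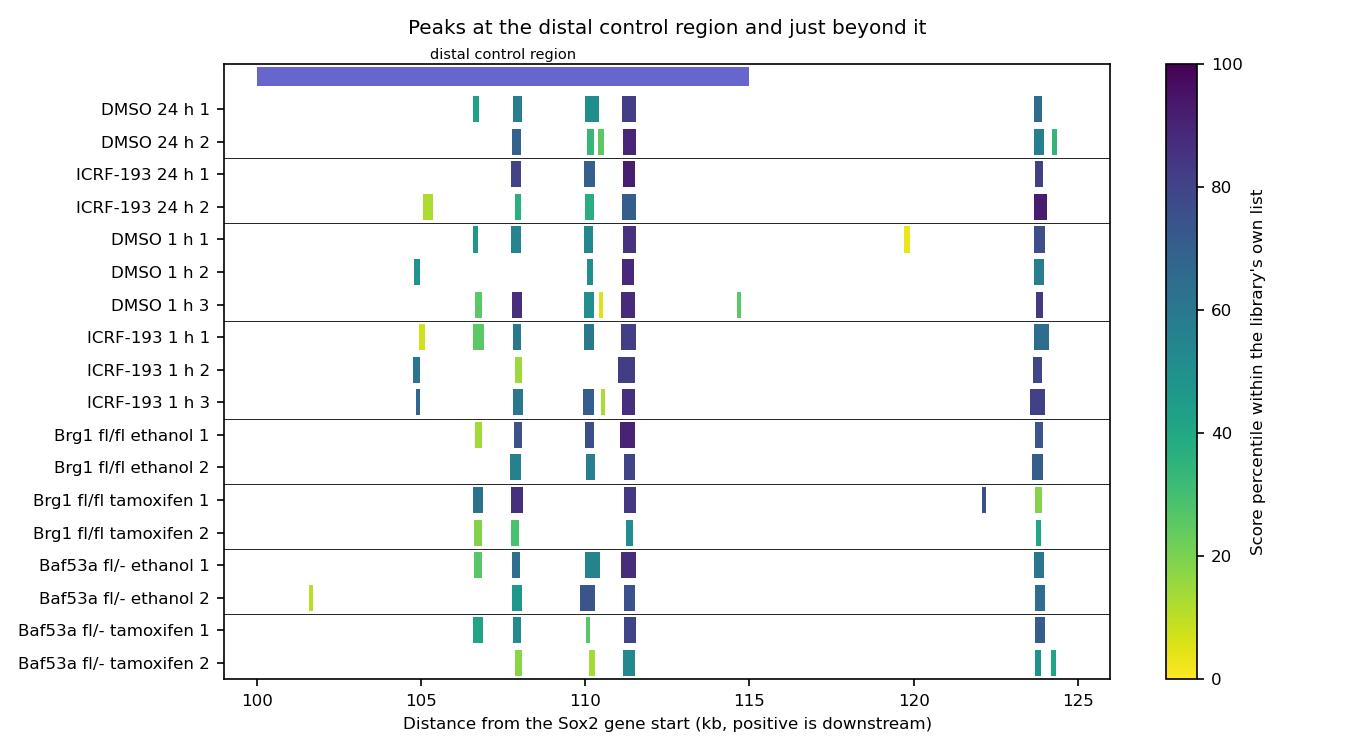
Peaks of the 18 libraries in and around the distal control region, by distance from the Sox2 gene start in kb, drawn to scale and coloured by list percentile. The site 110 kb downstream is present in both Brg1 ethanol rows and empty in both Brg1 tamoxifen rows, while the site 111 kb downstream is present in every row.

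The distal control region held 7 regions and 69 peaks, with 3 to 5 regions detected per library. Its strongest site was found in all 18 libraries. This region, from 34659986 to 34660543 and centred 111 kb downstream, had list percentiles from 50.8 to 91.7 (median 83.2), close to those of the gene start. Its placement was 31.7 and 46.0 with DMSO for 24 h, 61.5 and 23.3 with ICRF-193 for 24 h, 32.4, 67.2 and 38.7 with DMSO for 1 h, and 30.1, 57.1 and 43.5 with ICRF-193 for 1 h. It was 54.4 and 31.9 with Brg1 ethanol and 36.7 and 17.2 with Brg1 tamoxifen, and 42.0 and 22.9 with Baf53a ethanol against 26.9 and 6.31 with Baf53a tamoxifen. The groups overlapped in each of the 4 contrasts.

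The neighbouring site 110 kb downstream (34658838 to 34659586) was a second, weaker part of the distal control region. It held a peak in 15 libraries and was not detected in both Brg1 tamoxifen libraries or in replicate 2 of ICRF-193 for 1 h. Its placement was 18.2 and 6.91 in the Brg1 ethanol libraries, so it was a weak site by this yardstick, although its list percentiles there were 75.8 and 57.5. In the Baf53a line it was 1.95 and 20.2 with ethanol and 0.482 and 0.249 with tamoxifen. It was detected in both tamoxifen libraries of that line. Its list percentiles were 55.2 and 73.6 with ethanol and 26.2 and 13.5 with tamoxifen, from lists of different lengths that cannot be compared by this measure. In wild-type cells its placement ran from 0.260 to 12.5 with DMSO and reached 14.2 with ICRF-193. The libraries with a peak overlapped at 1 h, where DMSO replicate 2 was at 12.5 and ICRF-193 replicate 1 at 5.71. At 24 h they did not overlap, and ICRF-193 ranked higher. The rank difference there was 0.66 (SE 0.62, limma adjusted p = 0.7631). Among the 39121 regions shared by the Baf53a libraries the rank difference of the 110 kb site was -1.32 (SE 0.64), with an unadjusted p of 0.04896 and a limma adjusted p of 0.6318. That p was the lowest of the window regions fitted there, and limma called 0 of the 39121 regions.

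The site 108 kb downstream (34656715 to 34657103) was found in 17 libraries, all but DMSO 1 h replicate 2, with placements from 0.460 to 42.0. The highest of these was Brg1 tamoxifen replicate 1, and replicate 2 of that group was at 5.82, so the Brg1 tamoxifen pair spanned most of the range. The site 107 kb downstream was found in 9 libraries, among them both Brg1 tamoxifen libraries and 1 of the 2 Brg1 ethanol libraries. The site 105 kb downstream was found in 5 libraries, all wild type: 3 of 3 with ICRF-193 for 1 h, 1 of 3 with DMSO for 1 h, 1 of 2 with ICRF-193 for 24 h and 0 of 2 with DMSO for 24 h. The other 2 regions of the distal control region had a peak in 1 library each.

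Beyond the distal control region, the region from 34672562 to 34673141, centred 124 kb downstream, was found in all 18 libraries and varied most in list percentile among the 4 such regions (18.6 to 92.4). Its placement was 15.6 and 17 with Brg1 ethanol and 0.282 and 11.2 with Brg1 tamoxifen. With ICRF-193 for 24 h it was 29.7 and 71.1, against 9.64 and 3.10 with DMSO. At 1 h it was 8.29, 50.6 and 29.8 with ICRF-193 and 13, 17.3 and 24.0 with DMSO. In the Baf53a line it was 3.33 and 10.9 with ethanol and 14.6 and 4.71 with tamoxifen. The pairs did not overlap after Brg1 deletion, where they ranked lower, or at 24 h of ICRF-193, where they ranked higher.

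**Figure D3:**
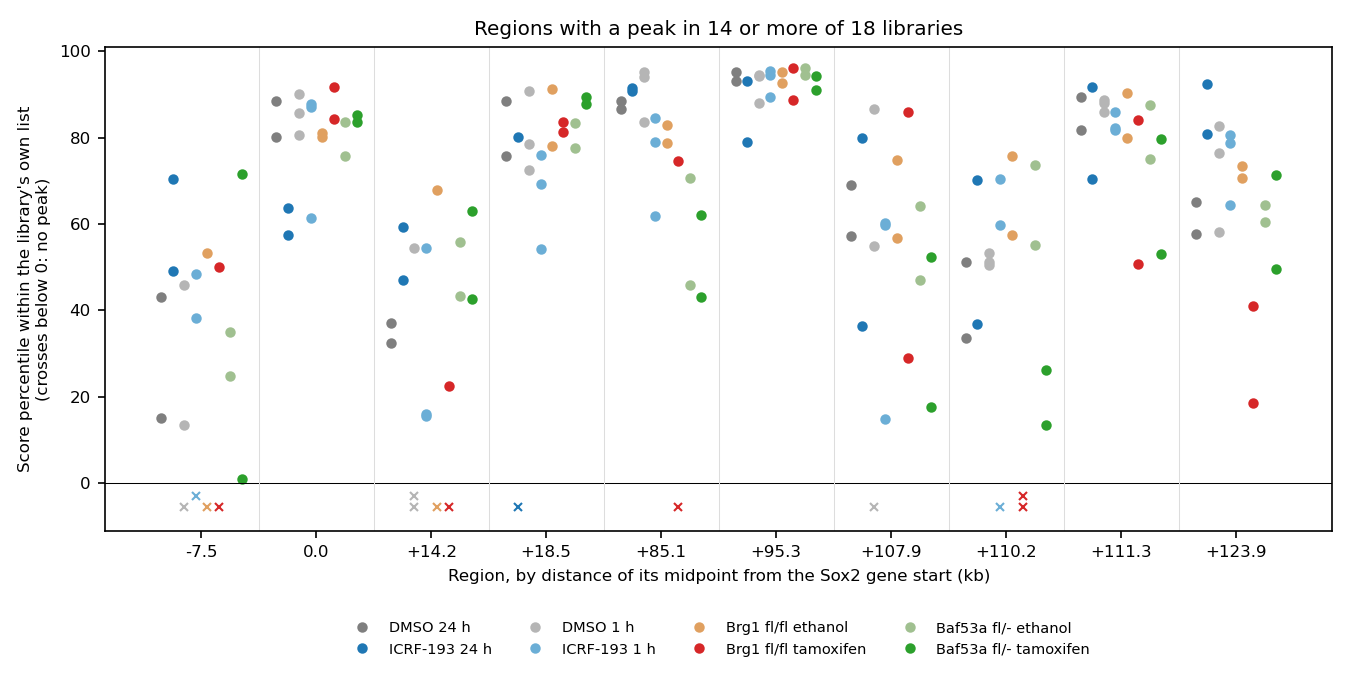
List percentile of each library (points, coloured by group) for the 10 regions detected in 14 or more libraries, ordered by distance from the Sox2 gene start in kb; crosses below 0 mark libraries with no peak. The site 95.3 kb downstream lies at the top in nearly all libraries, and both Brg1 tamoxifen libraries lack the site 110 kb downstream.

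By median list percentile the recurrent sites were ordered as 95.3 kb (94.3), the gene start (83.5), 111 kb (83.2), 85.1 kb (82.8), 18.5 kb (80.1), 124 kb (67.9), 108 kb (57.4), 110 kb (53.4), 14.2 kb (45.2) and the site 7.5 kb upstream of the gene (44.5). The first step was the clear one, since the 95.3 kb site scored above the gene start in 17 of 18 libraries. The gene start scored above the 111 kb site in 10 of 18, the 85.1 kb site above the 18.5 kb site in 9 of 16, and the 108 kb site above the 110 kb site in 8 of the 14 libraries that held both, so these neighbours kept no fixed order. Across the 18 libraries the Spearman correlation of rank with the gene start was 0.37 for the 95.3 kb site, -0.16 for the 111 kb site and -0.34 for the 124 kb site. These are descriptions over libraries that share depth and treatment differences.

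After Brg1 deletion, 2 window regions were called lost, a share near the genome background, and 2 were called gained. Lost means a peak in every control library and none in the perturbed libraries, and gained means the reverse. These are counts of called peaks, with no test. Of the 10 window regions shared by the Brg1 ethanol libraries, 2 were lost, where 23.9% of all such regions of the genome were lost. They were the weak distal site 110 kb downstream and a region 90.1 kb downstream (34638899 to 34639342) at list percentiles of 14.8 and 5.14. Loss in the window was thus near the background. Of all ethanol-shared regions at or above the mean list percentile of the 110 kb site (66.7), 9.89% were lost. That set holds all stronger regions too, so 9.89% is not the share among sites of like strength. Of the 9 window regions shared by the Brg1 tamoxifen libraries, 2 were gained, where 4.97% of all such regions were gained. They were the second region within the gene, at list percentiles of 73.8 and 17.2, and a region 10.5 kb upstream (34538123 to 34538799) at 69.4 and 52.9. Neither was particular to Brg1 deletion, since they held peaks in 6 and 7 other libraries. With lists shortened to 46431 peaks each, 1 of 8 ethanol-shared regions was lost, the 110 kb site (background 18.9%). Of 8 tamoxifen-shared regions, 3 were gained, the third being the 107 kb site (background 9.52%). The count of lost regions rested on pairs of libraries. It was 6 without ethanol replicate 1, 6 without ethanol replicate 2 and 4 without tamoxifen replicate 1, and 7 regions were gained without tamoxifen replicate 2.

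After Baf53a deletion, 0 of 12 ethanol-shared window regions were lost (background 11.2%) and 1 of 12 tamoxifen-shared regions was gained (background 5.49%), a region 41.7 kb downstream (34590567 to 34590759) found in no other library. With ICRF-193 for 24 h, 1 of 11 regions was lost (background 15.5%), 69.2 kb downstream (34617832 to 34618497), at list percentiles of 65.1 and 50.1 in the DMSO libraries (5.24% of DMSO-shared regions at or above their mean were lost). Here too the 5.24% covers all stronger regions. The region 69.2 kb downstream was also present in 2 of 3 libraries with ICRF-193 for 1 h. At 24 h 1 of 13 regions was gained (background 5.46%), 50.6 kb downstream (34599489 to 34599699), found in no other library and at list percentiles of 3.39 and 3.48. Under the stricter rule of 3 libraries against 3, ICRF-193 for 1 h gave 0 lost of 7 regions (background 2.28%) and 0 gained of 11 (background 0.375%). With equal numbers of peaks per list, the window lost 0 of 12 regions and gained 1 of 11 after Baf53a deletion (background 9.52% and 6.74%). It lost 1 of 8 and gained 1 of 11 at 24 h (11.6% and 8.1%). At 1 h it lost 0 of 6 and gained 0 of 7 (1.52% and 1.03%). The region gained at 24 h was then another, 0.661 kb upstream of the gene.

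Among the regions of all lists, a change in rank was tested with limma over all 18 libraries. The ranks within each library were turned into normal scores, where 1 unit is 1 SD of the ranked regions. At the gene start the difference was 0.84 (SE 0.47, limma adjusted p = 0.4371) after Brg1 deletion, 0.38 (SE 0.47, adjusted p = 0.9439) after Baf53a deletion, -0.88 (SE 0.47, adjusted p = 0.5823) with ICRF-193 for 24 h and -0.02 (SE 0.38) at 1 h. At the strongest distal site, 111 kb downstream, it was -0.46 (SE 0.48), -0.60 (SE 0.48), 0.07 (SE 0.48) and -0.07 (SE 0.39) in the same order. At the 95.3 kb site it was 0.16, -0.28, -0.44 (SE 0.35 each) and 0.24 (SE 0.28). At the 124 kb site it was -1.01 (SE 0.57, limma adjusted p = 0.4482), 0.17 (SE 0.57), 1.60 (SE 0.57, adjusted p = 0.3265) and 0.29 (SE 0.46).

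None of these 16 differences passed. By limma, 0 of the 4 window regions changed rank in each contrast, against 3.77% of the 18061 regions after Brg1 deletion, 0.00554% after Baf53a deletion, 0.0941% at 24 h of ICRF-193 and 0% at 1 h. At an unadjusted limma p under 0.05 there was 1 region of the 4, the 124 kb site at 24 h, and none in the other contrasts, where 9.04% of all regions were under it at 24 h, 13.9% after Brg1 deletion, 7.12% after Baf53a deletion and 5.53% at 1 h. Groups that do not overlap were common genome-wide. After Brg1 deletion 25.5% of these regions ranked higher in every tamoxifen library and 20.0% lower, where the window had 1 region each way, the gene start and the 124 kb site. After Baf53a deletion the window again had 1 region each way, the gene start higher (19.6% of all regions) and the 95.3 kb site lower (17.5%). At 24 h the 124 kb site was higher (21.2%) and the gene start lower (18.9%). At 1 h the 95.3 kb site was higher (5.08%) and none was lower (4.83%). With standard errors of 0.28 to 0.57, a missed threshold does not show that the ranks were alike. Differences between the 2 deletions were not called at any of the 4 regions (lowest limma adjusted p = 0.858; 0.194% of all regions called and 7.16% at an unadjusted p under 0.05), nor were those between 24 h and 1 h of ICRF-193 (lowest limma adjusted p = 0.753; 0.00554% and 6.92%).

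**Figure D4:**
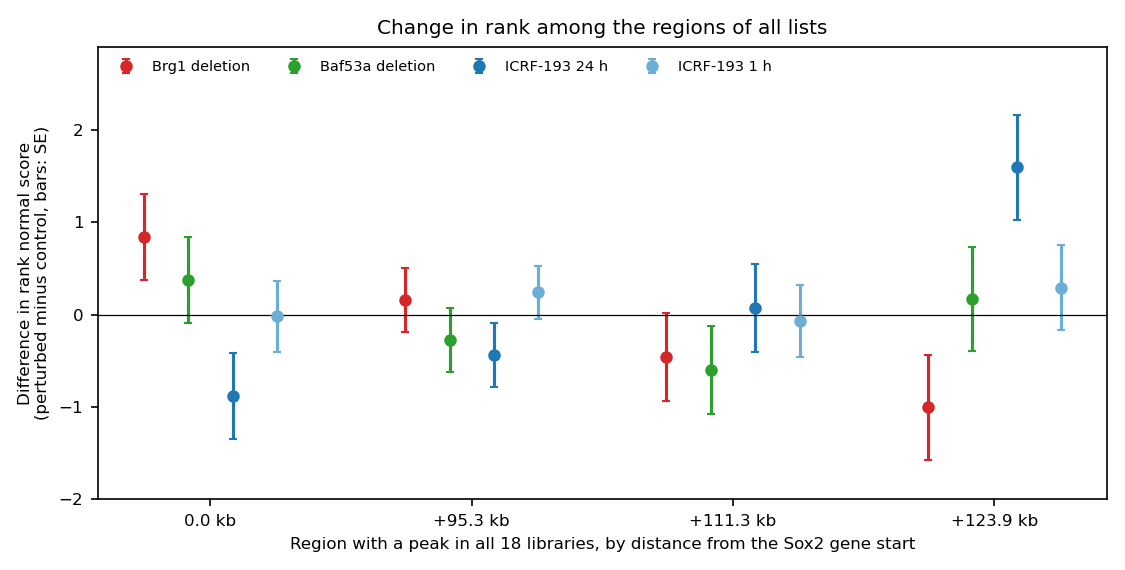
Difference in rank normal score (perturbed minus control, limma estimate; bars are 1 SE) for the 4 window regions with a peak in all 18 libraries, in the 4 contrasts. The gene start lies above 0 in both deletions and below 0 at 24 h of ICRF-193, and the 124 kb site lies highest at 24 h; no difference passed.

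The number of peaks in the window passed no test in any contrast. Brg1 ethanol libraries had 17 and 15 window peaks and tamoxifen libraries 19 and 11 (16 ± 1.41 and 15 ± 5.66, SD, n = 2 each). Baf53a libraries had 17 and 15 with ethanol and 19 and 19 with tamoxifen, the contrast whose groups did not overlap. How many other stretches of 150 kb separated in that contrast was not counted. At 24 h there were 18 and 24 with DMSO and 19 and 20 with ICRF-193, and at 1 h 27, 11 and 24 with DMSO and 27, 13 and 21 with ICRF-193. The two-sided exact permutation p was 1, 0.3333, 1 and 1 in this order of contrasts (each 1 after Benjamini-Hochberg adjustment over the 4), where 2 against 2 libraries cannot go below 0.3333 and 3 against 3 not below 0.1. Averaged over all 4 contrasts, the log2 change was 0.0061 (exact stratified permutation p = 0.968).

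As a share of each list, window peaks were more frequent in perturbed cells over the 4 contrasts together, but no contrast passed alone (exact permutation p of 0.3333 in the 3 contrasts of 2 against 2 and 0.2 at 1 h). They made up 16.7 ± 1.29 per 100000 peaks with Brg1 ethanol and 23.1 ± 0.902 with tamoxifen, and 16.6 ± 1.76 and 21.6 ± 0.308 in the Baf53a line (SD, n = 2 each). At 24 h the ICRF-193 libraries had 22.7 ± 4.74 against 18.6 ± 0.394 with DMSO (SD, n = 2 each), and those at 1 h 24.8 ± 2.49 against 19.8 ± 2.08 (SD, n = 3 each). The groups did not overlap in the 3 contrasts of 2 against 2 libraries and overlapped at 1 h, where the lowest ICRF-193 library had 22.0 and the highest DMSO library 22.2. At 24 h the nearest libraries were close, at 18.9 with DMSO and 19.3 with ICRF-193. How many other stretches of 150 kb separated in this way was not counted. Over the 4 contrasts the mean log2 change was 0.36, a fold of 1.29 (two-sided exact stratified permutation p = 0.000926, 0.0037 after adjustment over the 4 measures tried). With equal numbers of peaks per list the fold was 1.25 (exact permutation p = 0.00602).

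This share was then read against the genome, a step added after the data were seen. The same test was run on the 3078 stretches of 150 kb with a mean of 10 or more peaks. Of these, 8.9% had a higher share at an unadjusted p under 0.05 and 1.27% a lower one, and 59 (1.92%) had a larger rise than the Sox2 window. The median log2 change of all stretches was 0.074. For the number of peaks, 0.0325% of stretches were higher and 20.6% lower at that level, and 2.18% lay above the window. After Benjamini-Hochberg adjustment over all stretches the exact permutation p of the Sox2 window was 0.377, so its rise in share did not pass genome-wide, and no stretch did.

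**Figure D5:**
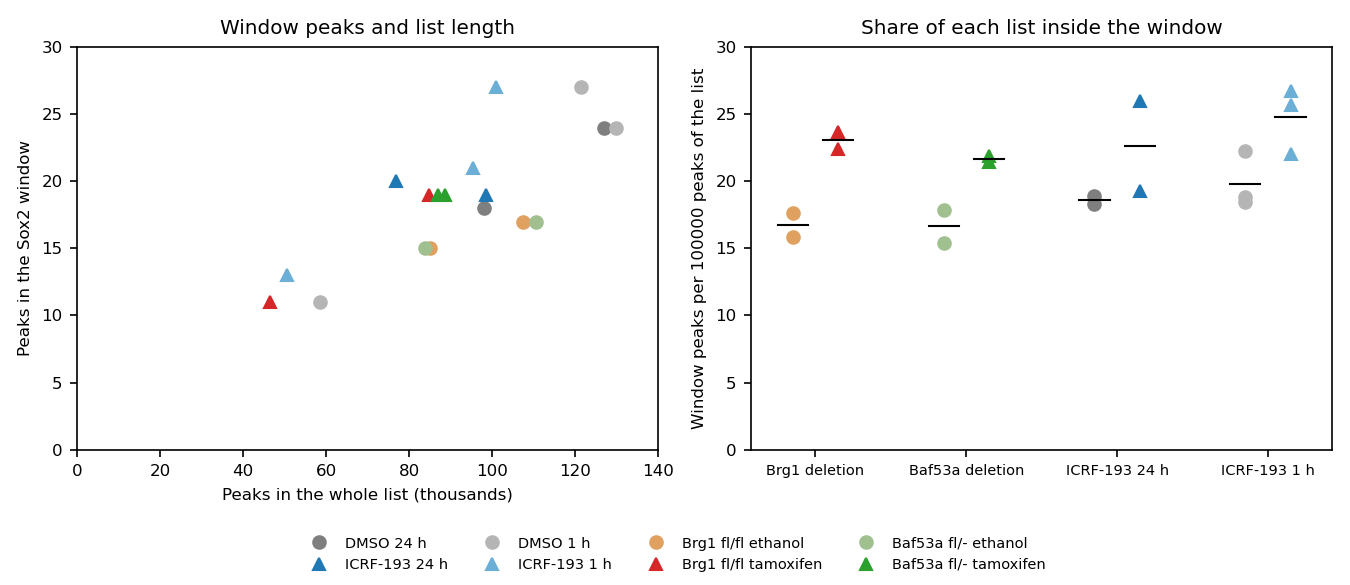
Left, peaks in the Sox2 window against the total number of peaks of each of the 18 lists (circles, controls; triangles, perturbed). Right, window peaks per 100000 peaks of the list by contrast, with bars at group means; the perturbed means of 21.6 to 24.8 lie above the control means of 16.6 to 19.8.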

How the data were processed

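The files are 1 ATAC-seq peak list per library. The authors deposited start and end positions (other values) and a score for each peak, with no header, unit or read counts. The submitters' processing notes name mm9 as build and list MACS2, edgeR 3.12.1 and Bowtie 0.12.9 without saying what each did. How reads were shifted and peaks called is not given in the sources used here. Without read counts, depth and counting error are unknown.

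Positions were counted from 1. Regions were merged, ranked and counted in Python 3.11.15 (numpy 2.4.6, pandas 2.3.3, scipy 1.17.1). Normal scores of rank over the 18061 regions of all lists were fitted in limma 3.58.1 (R 4.3.3; 1 term per group, variance trend, Benjamini-Hochberg adjustment, threshold 0.05), and the fit was tested on simulated data, where it left most regions with a known shift uncalled and called few unshifted ones. The highest-scoring peak stood for a region. Tests of single values were exact permutations. Named regions are those at the gene or in the distal control region, those detected in all 18 lists and those lost or gained in a contrast. The other sites named (18.5, 85.1, 14.2 and 3.84 kb downstream and the upstream sites) were chosen for recurrence after their values were seen. The window and tests were chosen with earlier results of these data known. Alternatives were lists of equal length, the top-scoring peaks, other merging and detection rules, other rank scales, the replicate block and leaving out each library.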

Additional observations from a re-analysis of the deposited data

How the results depend on the processing

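The log2 change in the number of window peaks turned with the measure. As a share of the list it was 0.46 for Brg1 deletion, 0.28 for ICRF-193 at 24 h and 0.32 at 1 h, and with equal numbers of peaks 0.37, 0.23 and 0.42 (exact permutation p of 0.2 to 0.6667); the shorter perturbed lists enter both measures by construction. In base pairs under peaks it was -0.12 for Baf53a deletion, 0.056 for ICRF-193 at 1 h and -0.069 over the 4 contrasts, and with the replicate block 0.016 at 1 h. Over the 4 contrasts the share (0.36, exact permutation p = 0.000926) and equal numbers (0.32, p = 0.00602) passed. Checked after the data were seen, the change in share was 0.30 to 0.41 without each library and 0.36 with the replicate block. The exact sign-flip p of the latter was 0.00391, the smallest that 512 sign flips allow. These checks reused the values of a measure that had already passed. Over all stretches of 150 kb the rise in share did not pass (exact permutation p = 0.377 after Benjamini-Hochberg adjustment). Without single libraries the change in number ran from -0.54 to 0.25 for Brg1 deletion, 0.16 to 0.34 for Baf53a deletion, -0.30 to 0.12 at 24 h, -0.33 to 0.22 at 1 h and -0.11 to 0.091 over all.

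Lost regions numbered 1 for Brg1 deletion with equal numbers, 1 for Baf53a deletion in the top-scoring 50% of peaks and 0 at 24 h when a peak had to cover 50% of the median width. Gained regions numbered 1 for Brg1 deletion under each of the last 2 settings, and 0 for Baf53a deletion and at 24 h in the top-scoring 50%. Without single libraries, lost regions ran from 2 to 6, 0 to 3, 1 to 7 and 0 to 1 (Brg1, Baf53a, 24 h, 1 h) and gained regions from 2 to 7, 1 to 7, 2 to 5 and 0 to 2; fewer libraries make either call easier by construction. Beyond the Brg1 libraries, lost regions were 3 without either Baf53a ethanol library, 7 and 6 without DMSO 24 h replicate 1 and 2, and gained regions were 7 and 6 without Baf53a tamoxifen replicate 1 and 2 and 5 without ICRF-193 24 h replicate 2. In every setting 0 regions changed rank. Rank differences that changed sign without 1 library ranged from -0.011 to 0.33 (95.3 kb, Brg1), -0.14 to 0.48 (124 kb, Baf53a), -0.44 to 0.58 (111 kb, 24 h), -0.32 to 0.38 (gene start, 1 h), -0.25 to 0.20 (111 kb, 1 h) and -0.033 to 0.67 (124 kb, 1 h). Same-numbered libraries deviated together only weakly in rank (correlations 0.034 to 0.13, with each library closest to its own number), and the numbers were not taken as pairs. With 2 libraries per group, the correlation with the other number is the exact negative by construction. In number of window peaks, same-numbered libraries at 1 h lay close (27 and 27, 11 and 13, 24 and 21), which the unpaired permutations ignore. Taken as pairs, the change in number over the 4 contrasts was 0.0077 (exact sign-flip p = 0.922). The deposited lists give no depth, which limits what a missing peak can show.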
